A study of Mus musculus with 8 samples.

Results

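The Wnt ligands, receptors and regulators described here were 55 of the 55450 genes in the count table. Members were taken by gene name, without the use of measured values in the rule. They comprised the 19 Wnt genes, the 10 Frizzled (Fzd) genes, 4 Sfrp, 4 Dkk and 4 Rspo genes, the antisense RNA Rspo4os, which shares the Rspo name, and 13 named single genes (Lrp5, Lrp6, Kremen1, Lgr4, Znrf3, Rnf43, Ctnnb1, Axin1, Axin2, Tcf7, Tcf7l1, Tcf7l2 and Lef1). Bulk RNA-sequencing was performed on CD45-EpCAM+ thymic epithelial cells (TECs) of embryonic day (E) 17 mouse embryos that carried tdTomato in the Ccl21a gene as well as a Tnfrsf11a (RANK) Venus reporter, and all populations came from such embryos. The TECs were sorted into CCL21+RANK- (tdTomato+Venus-, 3 libraries), CCL21-RANK+ (tdTomato-Venus+, 3 libraries) and CCL21-RANK- (neither signal, 2 libraries) populations, and these are called CCL21+, RANK+ and double-negative TECs hereafter. The groups thus rest on reporter fluorescence and not on the proteins themselves. How many embryos were pooled in a library is not stated in the sources used here, so p-values measure the spread between these libraries. Libraries held 42751839 to 71625282 counts. The comparison asked how medullary TECs that express the chemokine CCL21 differ from those that express RANK, a receptor of medullary TEC progenitors, with the double-negative cells as a further population.

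Wnt proteins are secreted, lipid-modified ligands that bind Frizzled receptors together with the co-receptors Lrp5 and Lrp6. In the β-catenin branch, binding halts a destruction complex built on Axin and Apc, so that β-catenin (Ctnnb1) accumulates, enters the nucleus and acts with Tcf and Lef factors, whereas other Wnt ligands signal without β-catenin. In the thymus, Wnt ligands such as Wnt4 are known as regulators of Foxn1, the transcription factor that TECs require.

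The labels were first checked. Ccl21a, which encodes the chemokine, was at 561, 346 and 305 RPKM (counts scaled to exon length and library total) in the CCL21+ libraries, 152, 95.9 and 78.2 RPKM in the RANK+ libraries and 6.88 and 8.87 RPKM in the double-negative libraries. Its reads can be shared with near-identical Ccl21 copies. Tnfrsf11a was at 111, 93.1 and 107 RPKM in RANK+ TECs and did not exceed 10.3 RPKM in any other library. Both reporter genes were therefore highest in the population sorted for them, although Ccl21a RNA was also abundant in RANK+ cells. Epcam was at 49.5 RPKM or more in every library and the leukocyte gene Ptprc (CD45) at 0.58 RPKM or less, and all 8 TEC markers examined exceeded 1 RPKM in every library. Their summed level was nevertheless lower in RANK+ TECs, at 1689, 1918 and 1548 RPKM, than in CCL21+ (5002, 5003 and 5777 RPKM) and double-negative TECs (4545 and 4828 RPKM). Psmb11, a gene of cortical TECs, was at 11.9, 32.7 and 17.5 RPKM in RANK+ and 203 RPKM or more in the other libraries, whereas Epcam was highest in RANK+ TECs.

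Of the 55 genes, 38 had a mean over 1 RPKM in at least 1 population, and 17 did not. Among those 38, 14 had their highest mean in CCL21+, 16 in RANK+ and 8 in double-negative TECs, a split that was not taken over all genes. A gene was called different if its adjusted p-value from edgeR's quasi-likelihood test was under 0.05, its fold change over 1.5 and its mean over 1 RPKM in the higher population. In CCL21+ versus RANK+ TECs, 32 of the 55 genes were called, 17 higher in CCL21+ and 15 higher in RANK+, against 30.8% of all 21451 genes tested and 48.9% of the genes with a mean over 1 RPKM in either population. The median log2 fold change over the 38 genes was 0.44, with 22 values positive and 16 negative, against 0.06 over the 13744 genes with such a mean. Over all 53 genes of the module that were tested, which adds 15 genes below that level, it was -2.29, against -0.11 over all genes tested, so its direction turned with the low genes. Most of those low genes passed the count filter for testing only through their counts in RANK+ libraries. The sign of this median thus follows from how they were admitted and is not a result about the module. In CCL21+ versus double-negative TECs, 5 of the 55 were called, against 8.02% of all genes, and the median over the 38 was 0.00, against -0.04 over all genes above that level. The 1720 genes called in this comparison became 772 without double-negative replicate 1 and 657 without replicate 2, which left a single library in that group, but the same 5 genes of the module were called. In RANK+ versus double-negative TECs, 28 were called, 15 higher in RANK+ and 13 higher in double-negative, against 29.5% of all genes. The median over the 38 was 0.20, against -0.14 over all genes above that level. Over the 53 tested it was 0.99, against 0.06, with the same limit from the low genes. These calls were 28 of the 37 genes with a mean over 1 RPKM in either population, against 47.0% of all such genes. These comparisons share libraries, so they are not independent of each other. By the adjusted p-value alone, 20 genes were higher in CCL21+ and 30 in RANK+ TECs (23.1% and 30.6% of all genes), 4 in CCL21+ and 4 in double-negative TECs (6.28% and 5.15%), and 23 in RANK+ and 14 in double-negative TECs (27.0% and 21.9%). Without a test, the libraries did not overlap for 20 and 27 genes (22.8% and 36.9% of all genes), 10 and 13 genes (18.4% and 20.5%), and 28 and 14 genes (38.8% and 26.9%) in the same order. The plot of fold changes shows that most of these genes sat near 0 between the RANK- populations but not between CCL21+ and RANK+ TECs.

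**Figure D1:**
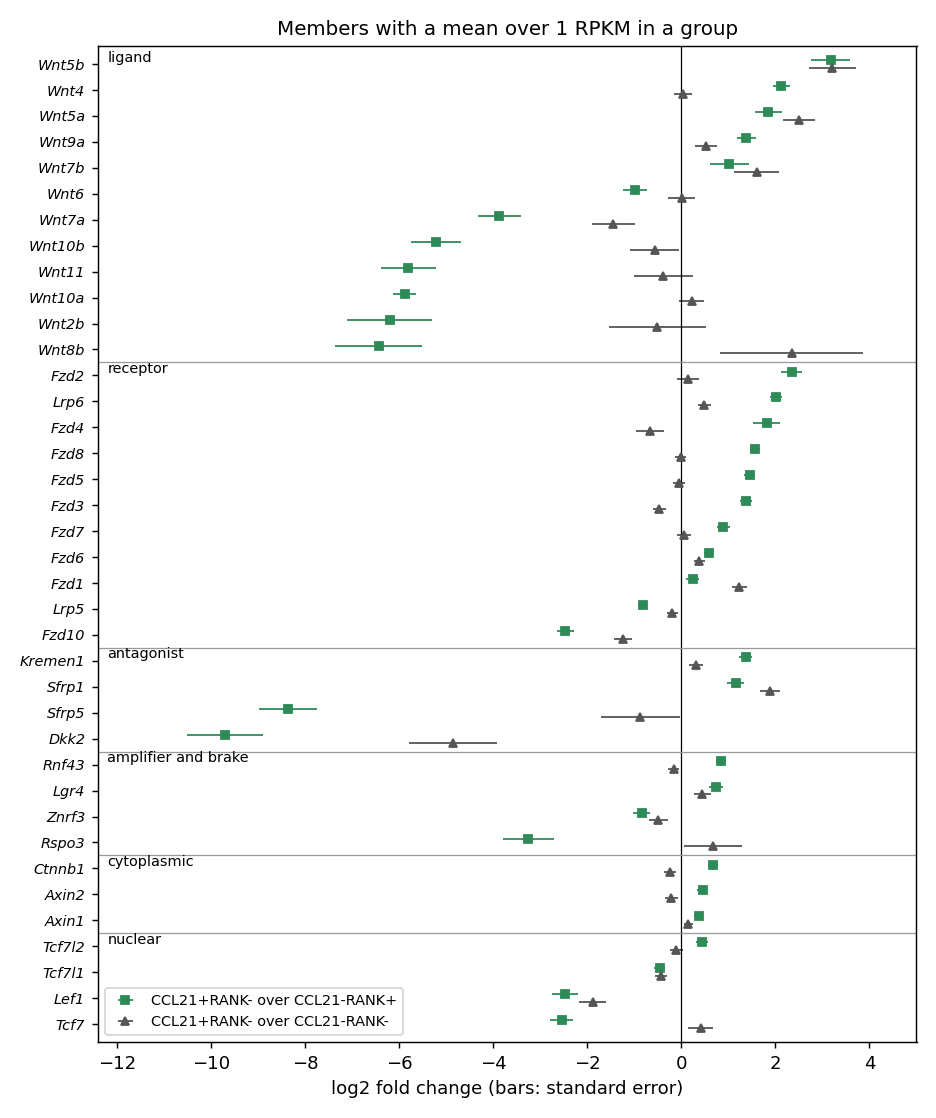
Log2 fold changes (x axis) of the 38 genes with a mean over 1 RPKM in a population, by role, for CCL21+RANK- over CCL21-RANK+ TECs (green squares) and CCL21+RANK- over CCL21-RANK- TECs (grey triangles), with bars for the standard error. Most green squares lie away from 0, with Wnt5b at 3.17 and Wnt10b at -5.21, whereas most grey triangles lie near 0, with Wnt4 at 0.04. Values for Dkk2, which had 1 count in all CCL21+RANK- libraries, depend on the prior count of the fit. The standard errors were worked back from the test statistic.

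Wnt4 was the most abundant ligand in both RANK- populations, whereas Wnt10b and Wnt10a were the most abundant in RANK+ TECs. In the CCL21+ versus RANK+ comparison, 11 of 19 ligand genes were called, 4 of them higher in CCL21+ (Wnt4, Wnt5a, Wnt5b and Wnt9a) and 7 higher in RANK+ (Wnt2b, Wnt6, Wnt7a, Wnt8b, Wnt10a, Wnt10b and Wnt11). These shares may be read against the 15.4% of all genes tested that were called in each direction.

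Wnt4, a ligand of epithelial development in many organs, was at 36.6, 35.6 and 32.4 RPKM in CCL21+ TECs, 11.3, 7.94 and 7.06 RPKM in RANK+ TECs and 27.4 and 41.6 RPKM in double-negative TECs. All RANK+ libraries were below every other library, and the RANK- populations overlapped. Its level was 4.37-fold higher in CCL21+ than in RANK+ TECs (log2 fold change 2.13, SE 0.18, adjusted p = 9.65e-06, edgeR) and 4.26-fold lower in RANK+ than in double-negative TECs (log2 fold change -2.09, SE 0.19, adjusted p = 1.98e-05), while the RANK- populations were not distinguished (log2 fold change 0.04, SE 0.19, adjusted p = 0.97).

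Wnt5a and Wnt5b, ligands known mainly for signaling without β-catenin, were highest in CCL21+ TECs and separated that population from both others. Wnt5a was at 5.57, 2.59 and 3.28 RPKM in CCL21+, 1.37, 0.94 and 1.15 RPKM in RANK+ and 0.79 and 0.55 RPKM in double-negative TECs. Wnt5b was at 8.93, 3.53 and 4.36 RPKM in CCL21+, 0.89, 0.36 and 0.79 RPKM in RANK+ and 0.55 and 0.66 RPKM in double-negative TECs. No CCL21+ library overlapped another population for either gene, and replicate 1 was the highest library for both. Wnt5a was 3.60-fold higher than in RANK+ (SE of the log2 value 0.29, adjusted p = 0.00047) and 5.64-fold higher than in double-negative TECs (SE 0.34, adjusted p = 0.0019). For Wnt5b the folds were 9.02 (SE 0.42, adjusted p = 0.00017) and 9.27 (SE 0.49, adjusted p = 0.0032). Replicate 1 of CCL21+ TECs also held the most RNA of parathyroid markers, which arise beside the thymus in the same pouch. The summed level of the 4 markers (Pth, Gcm2, Chga and Casr) was 7122 RPKM there, 1750 and 1955 RPKM in the other CCL21+ libraries, and 24.9 RPKM or less in the other populations, with Chga the most abundant in each CCL21+ library and none at 0. The part of such cells in the Wnt5a and Wnt5b values was not tested. Without that replicate, the log2 fold changes against RANK+ TECs were 1.47 for Wnt5a (adjusted p = 0.00069) and 2.66 for Wnt5b (adjusted p = 0.00037). The CCL21+ libraries that remained still held parathyroid marker RNA at 1750 and 1955 RPKM, so this refit does not remove it. The same limit applies to the other genes refitted without replicate 1.

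Wnt9a was at 2.33, 2.46 and 2.45 RPKM in CCL21+, 1.06, 0.87 and 1.09 RPKM in RANK+ and 1.47 and 1.91 RPKM in double-negative TECs. The order of the populations had no overlap, and the RANK+ population was lower than CCL21+ (2.61-fold, SE of the log2 value 0.21, adjusted p = 0.00036) and lower than double-negative (1.82-fold, SE 0.22, adjusted p = 0.010), the latter call being lost without double-negative replicate 2 (adjusted p = 0.10). Wnt7b was at 4.76, 2.12 and 1.82 RPKM in CCL21+, 2.27, 1.34 and 1.11 RPKM in RANK+ and 0.64 and 1.31 RPKM in double-negative TECs. Its populations overlapped between CCL21+ and RANK+, and no comparison passed (adjusted p = 0.059, 0.062 and 0.33). Wnt7b was called higher in CCL21+ than in RANK+ TECs without CCL21+ replicate 3 (adjusted p = 0.026) or RANK+ replicate 1 (adjusted p = 0.033), and higher than in double-negative TECs without the same libraries (adjusted p = 0.037 and 0.039). CCL21+ replicate 1, the highest library for Wnt7b, was also that with the most parathyroid marker RNA, and without it the log2 fold change over RANK+ TECs was 0.47 (adjusted p = 0.30).

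Wnt10b and Wnt10a, which are best known as ligands of the β-catenin branch in skin and its appendages, distinguished RANK+ TECs from every other library. Wnt10b was at 33.9, 39.3 and 45.5 RPKM in RANK+ TECs, 0.28, 1.58 and 1.12 RPKM in CCL21+ TECs and 1.73 and 1.17 RPKM in double-negative TECs. Wnt10a was at 31.2, 20.5 and 28.4 RPKM in RANK+, 0.57, 0.33 and 0.34 RPKM in CCL21+ and 0.32 and 0.40 RPKM in double-negative TECs. The lowest RANK+ library thus exceeded the highest other library by a wide margin for both genes. Wnt10b was 37.0-fold higher in RANK+ than in CCL21+ TECs (log2 fold change -5.21, SE 0.53, adjusted p = 3.05e-05), and Wnt10a was 58.8-fold higher (log2 fold change -5.88, SE 0.25, adjusted p = 3.52e-07). Without CCL21+ replicate 2, the log2 fold change of Wnt10b was -5.80 (adjusted p = 9.68e-05). Against double-negative TECs the folds were 24.9 for Wnt10b (SE 0.61, adjusted p = 0.00020) and 68.5 for Wnt10a (SE 0.30, adjusted p = 6.73e-07).

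Wnt6, the chromosome 1 neighbour of Wnt10a, was at 8.15, 4.17 and 4.08 RPKM in RANK+ TECs, 2.87, 2.31 and 2.35 RPKM in CCL21+ TECs and 2.37 and 2.64 RPKM in double-negative TECs. All RANK+ libraries were the highest, with replicate 1 above the others. The difference was 1.97-fold against CCL21+ (SE of the log2 value 0.26, adjusted p = 0.010) and 1.99-fold against double-negative TECs (SE 0.30, adjusted p = 0.021), and the latter was lost without either double-negative library (adjusted p = 0.11 in each case). The 2 genes lie 6193 bases apart on the same strand (GRCm38, GENCODE release M21). Wnt10b and Wnt1 lie 11706 bases apart on chromosome 15, but Wnt1 did not exceed 0.32 RPKM in any library.

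Wnt11 was at 5.40, 2.97 and 3.75 RPKM in RANK+ TECs and at 0.12 RPKM or less in all other libraries. The difference from CCL21+ was 55.8-fold (SE of the log2 value 0.58, adjusted p = 2.80e-05), with a log2 fold change of -5.80 that became -6.72 without CCL21+ replicate 1. Wnt7a was at 1.63, 1.36 and 1.27 RPKM in RANK+ TECs and at 0.33 RPKM or less elsewhere (14.6-fold against CCL21+, SE 0.45, adjusted p = 7.54e-05). These ligands were also separated from the RANK- populations in every library. Wnt2b was at 1.87, 0.59 and 1.1 RPKM and Wnt8b at 2.2, 0.73 and 0.99 RPKM in RANK+ TECs, whereas neither exceeded 0.0362 RPKM elsewhere. Both rest on RANK+ replicate 1, without which their means did not exceed 1 RPKM and their calls were lost. Their log2 fold changes between CCL21+ and RANK+ TECs, -6.19 for Wnt2b and -6.43 for Wnt8b, also moved with single CCL21+ libraries, to -5.56 without replicate 1 and -7.93 without replicate 2 for Wnt2b, and to -7.81 without replicate 2 and -5.81 without replicate 3 for Wnt8b. Wnt8b had 715 counts in RANK+ and 1 count in double-negative TECs, a depth-adjusted ratio of 609 with a 95% counting interval of 109 to 24085. The fitted log2 value of Wnt8b for that comparison, 8.78, became 10.88 without double-negative replicate 1 and 7.85 without double-negative replicate 2.

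**Figure D2:**
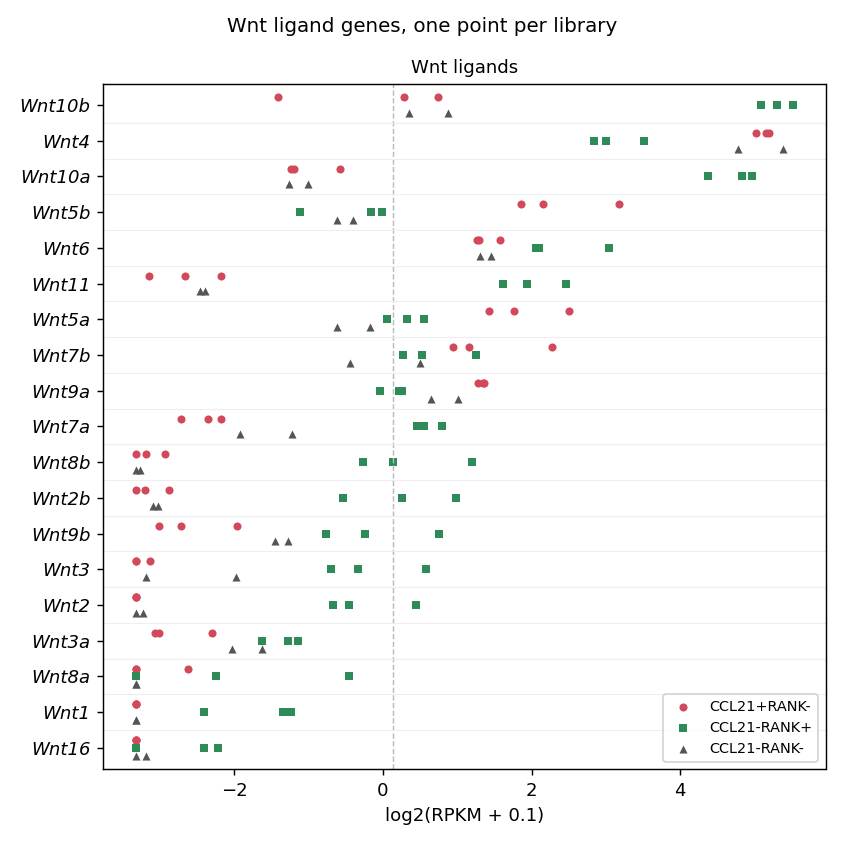
Levels of the 19 Wnt ligand genes on a log2(RPKM + 0.1) axis, 1 point per library, coloured by population, with a dashed line at 1 RPKM. Wnt4 is highest in the RANK- libraries, whereas Wnt10b, Wnt10a and Wnt11 are highest in all 3 CCL21-RANK+ libraries.

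The remaining 7 ligand genes (Wnt1, Wnt2, Wnt3, Wnt3a, Wnt8a, Wnt9b and Wnt16) had no mean over 1 RPKM, and their highest single library was at 1.59 RPKM. Ligand genes with at least 10 counts numbered 10 to 11 of 19 in CCL21+ libraries, 17 to 19 in RANK+ libraries and 12 to 13 in double-negative libraries. Across all 55 genes these numbers were 34 to 37, 50 to 54 and 40, and among all genes listed 30.2% to 31.4%, 35.3% to 38.7% and 31.4% of genes reached 10 counts. Wnt1 had 88 counts in RANK+ TECs and none in either RANK- population, so it was at least 28.9-fold higher than in CCL21+ TECs (floor of 3 counts over the group). Wnt2, a ligand of stromal cells in several organs, had 285 counts in RANK+ and none in CCL21+ TECs and was at least 93.7-fold higher. Without CCL21+ replicate 1 or 3, these bounds were 18.3-fold in each case for Wnt1, and 59.2-fold and 59.4-fold for Wnt2, for the same floor over fewer libraries. Of the 17 genes under 1 RPKM, 16 had their highest mean in RANK+ TECs, and within that population 14 of 17 were highest in replicate 1, as were 53.9% of all tested genes under that level. The share with their highest mean in RANK+ TECs was not taken over all low genes. More of all genes reached 10 counts in RANK+ libraries, so the 16 of 17 cannot be read as particular to the module.

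The summed markers of mesenchyme, myeloid cells, thymocytes and endothelium were also highest in RANK+ libraries, unlike those of parathyroid given above. The summed level of 10 mesenchymal markers was 63.2, 32.0 and 38.3 RPKM in RANK+ TECs, with Col1a1 or Dcn most abundant, against 3.67 to 5.70 RPKM in the other libraries. Within the mesenchymal list, Pdgfrb was at 6.82, 4.06 and 4.83 RPKM in RANK+ TECs and 0.17 RPKM or less elsewhere, whereas Pdgfra, at 0.26 RPKM or less in any library, and Twist1, which was at 0 in RANK+ replicate 2, had their highest level in CCL21+ and Twist2 in double-negative libraries. The sum of 5 myeloid markers was 57.8, 16.8 and 20.2 RPKM, led by Lyz2, against 0.98 RPKM or less elsewhere. For 13 thymocyte markers the sums were 34.1, 15.0 and 24.6 RPKM in RANK+, 14.3, 6.26 and 8.05 RPKM in CCL21+ and 4.53 and 3.97 RPKM in double-negative TECs, and for 6 endothelial markers 4.25, 2.36 and 1.90 RPKM in RANK+ and 0.47 RPKM or less elsewhere. Replicate 1 was the highest RANK+ library in each list, and the part of these cells in the levels of the Wnt genes was not tested. Across bulk libraries, fewer cells of a type and less RNA per cell cannot be told apart.

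Summed over the 19 genes, ligand RNA was at 106, 83.4 and 99.3 RPKM in RANK+ libraries, 62.2, 50.9 and 48.4 RPKM in CCL21+ libraries and 35.9 and 51.3 RPKM in double-negative libraries. The RANK+ sums were the highest, and the RANK- populations overlapped. Wnt4 made up 58.8% to 70.0% of this sum in CCL21+ libraries, 76.1% and 81.0% in double-negative libraries and 7.10% to 10.6% in RANK+ libraries. In the latter, Wnt10b contributed 31.9%, 47.1% and 45.8% and Wnt10a 29.3%, 24.6% and 28.6%.

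**Figure D3:**
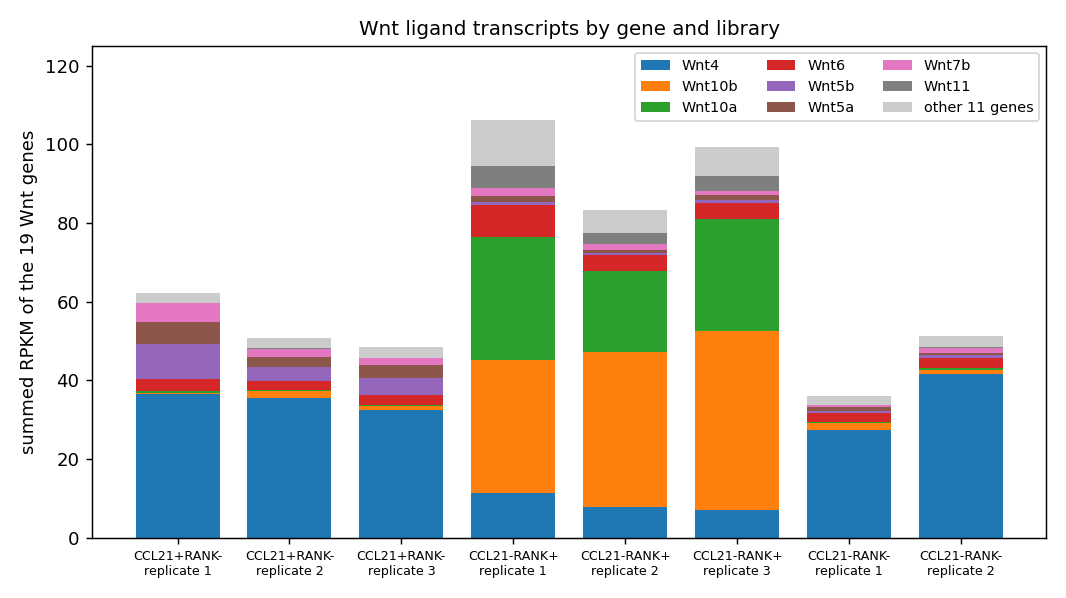
Summed RPKM of the 19 Wnt genes (y axis) in each of the 8 libraries, stacked by gene. Wnt4 fills most of each RANK- bar, and Wnt10b with Wnt10a most of each CCL21-RANK+ bar, whose heights are 106, 83.4 and 99.3 RPKM.

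Promoter sequence was available for 35 of the 55 genes (RefSeq, GRCm38.p6, 45 start sites). The 250 bases before each start were searched on both strands for the letters of the Tcf/Lef site, CTTTGAA and CTTTGAT. A match was present at 3 of the 45 starts, namely the start of Dkk1, 1 of the 2 starts of Wnt11 and 1 of the 3 starts of Wnt5b, and at 7.48% of the 32851 promoters in the table. Shown are Wnt10b, Wnt11 and Sfrp5, which were high in all RANK+ libraries and low elsewhere, and Wnt5b, which was highest in CCL21+ TECs, with the matched letters in capitals.
Wnt10b, chr15:98778151-98778400, minus strand, no match: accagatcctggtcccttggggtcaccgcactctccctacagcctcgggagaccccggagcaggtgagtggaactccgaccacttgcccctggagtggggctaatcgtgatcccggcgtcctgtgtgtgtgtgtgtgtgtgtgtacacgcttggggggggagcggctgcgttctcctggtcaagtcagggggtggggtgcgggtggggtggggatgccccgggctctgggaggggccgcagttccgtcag
Wnt11, chr7:98834862-98835111, plus strand: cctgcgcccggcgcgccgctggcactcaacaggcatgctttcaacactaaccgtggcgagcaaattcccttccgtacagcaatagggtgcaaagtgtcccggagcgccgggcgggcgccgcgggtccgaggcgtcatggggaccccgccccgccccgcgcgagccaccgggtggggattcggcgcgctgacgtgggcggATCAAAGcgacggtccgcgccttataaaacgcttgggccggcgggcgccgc
Sfrp5, chr19:42202253-42202502, minus strand, no match: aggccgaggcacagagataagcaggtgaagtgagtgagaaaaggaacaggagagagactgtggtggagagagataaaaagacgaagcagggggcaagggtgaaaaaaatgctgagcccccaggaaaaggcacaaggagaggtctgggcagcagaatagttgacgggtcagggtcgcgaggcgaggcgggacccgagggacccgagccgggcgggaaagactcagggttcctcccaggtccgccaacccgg
Wnt5b, chr6:119449387-119449636, minus strand: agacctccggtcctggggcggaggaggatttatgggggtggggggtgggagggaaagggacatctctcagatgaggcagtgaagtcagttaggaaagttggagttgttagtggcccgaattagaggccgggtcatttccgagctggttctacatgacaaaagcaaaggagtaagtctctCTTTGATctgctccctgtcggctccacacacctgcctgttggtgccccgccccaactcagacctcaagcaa
The match began 51 bases before the start in Wnt11 and 71 bases before it in Wnt5b. The windows held 14 (Wnt10b), 37 (Wnt11), 13 (Sfrp5) and 7 (Wnt5b) CG dinucleotides, against a median of 22 over the 45 starts of the module and 6 over all promoters. For Wnt11 and Wnt5b, the start shown was chosen because it held a match. Their other starts had no match and held 16 (Wnt11) and 4 and 35 (Wnt5b) CG dinucleotides. Which start was used in these cells cannot be read from counts per gene.

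Receptor genes mostly ran the other way from the ligand sum, as did the summed TEC markers given above, whose part in the receptor levels was not tested. Of the 12 genes for Frizzled receptors and Lrp co-receptors, 8 were higher in CCL21+ than in RANK+ TECs (Fzd2, Fzd3, Fzd4, Fzd5, Fzd6, Fzd7, Fzd8 and Lrp6), 2 were higher in RANK+ (Fzd10 and Lrp5), and Fzd1 and Fzd9 were not called, where 15.4% of all genes tested were called in each direction and 48.9% in either among those over 1 RPKM. In the RANK+ versus double-negative comparison, 7 were higher in double-negative and 3 in RANK+ TECs, where 15.1% and 14.4% of all genes were called. Their summed level was 272 ± 27.7 RPKM (SD, n = 3) in CCL21+, 140 ± 5.40 RPKM (SD, n = 3) in RANK+ and 232 ± 17.5 RPKM (SD, n = 2) in double-negative TECs.

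Fzd2 was the most abundant receptor gene in the RANK- populations. It was at 56.4, 62.6 and 70.0 RPKM in CCL21+, 9.23, 17 and 13.6 RPKM in RANK+ and 51.6 and 62.5 RPKM in double-negative TECs. The RANK+ libraries were all lowest, 5.10-fold below CCL21+ (SE of the log2 value 0.22, adjusted p = 1.98e-05) and 4.6-fold below double-negative TECs (SE 0.24, adjusted p = 5.39e-05). Fzd7 was the most abundant receptor gene in RANK+ TECs at 27.2, 35.3 and 33.3 RPKM, yet it was higher at 51.0, 51.3 and 63.3 RPKM in CCL21+ and at 49.3 and 56.9 RPKM in double-negative TECs. No RANK+ library reached those levels (1.86-fold against CCL21+, SE 0.14, adjusted p = 0.00044).

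The co-receptors, which are needed for the β-catenin branch, differed in opposite directions. Lrp6 was at 49.9, 49.6 and 62.3 RPKM in CCL21+, 13.5, 15.6 and 14.4 RPKM in RANK+ and 38.5 and 37.9 RPKM in double-negative TECs. Lrp5 was at 5.66, 4.62 and 5.22 RPKM in CCL21+, 10.6, 9.43 and 9.47 RPKM in RANK+ and 5.09 and 6.76 RPKM in double-negative TECs. The RANK+ libraries were thus the lowest for Lrp6 and the highest for Lrp5, without overlap. Lrp6 was 4.02-fold higher in CCL21+ than in RANK+ TECs (SE of the log2 value 0.13, adjusted p = 2.15e-06), and Lrp5 was 1.75-fold higher in RANK+ (SE 0.10, adjusted p = 0.00015). Against double-negative TECs, the Lrp5 difference was 1.54-fold (SE 0.12, adjusted p = 0.0020) and fell under the fold limit without double-negative replicate 1.

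Fzd10 and Fzd1 departed from the other Frizzled genes. Fzd10 was at 10.2, 10.4 and 10.8 RPKM in RANK+, 4.08 and 4.18 RPKM in double-negative and 2.11, 1.20 and 1.94 RPKM in CCL21+ TECs. Its populations were fully separated and each pair was called, with CCL21+ 5.53-fold below RANK+ (SE of the log2 value 0.18, adjusted p = 4.15e-06) and 2.37-fold below double-negative TECs (SE 0.19, adjusted p = 0.0033). Fzd1 was at 30.5, 21.9 and 22.9 RPKM in CCL21+, 25.4, 21.3 and 22.6 RPKM in RANK+ and 9.53 and 11.9 RPKM in double-negative TECs. It overlapped between the reporter-positive populations (1.18-fold, SE 0.13, adjusted p = 0.15) and was lower in double-negative TECs than in CCL21+ (2.35-fold, SE 0.16, adjusted p = 0.0013) and RANK+ (1.98-fold, SE 0.15, adjusted p = 0.00059).

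Fzd5 and Fzd8 shared the pattern of Fzd2 at lower levels. Fzd8 was at 16.1, 13.9 and 17.6 RPKM in CCL21+, 5.41, 5.92 and 6.16 RPKM in RANK+ and 14.8 and 17.3 RPKM in double-negative TECs. Fzd5 was at 12.1, 12.6 and 16.9 RPKM, 5.98, 4.98 and 5.46 RPKM, and 14.1 and 14.4 RPKM in the same order. Both were lowest in every RANK+ library, by 2.94-fold for Fzd8 (SE of the log2 value 0.11, adjusted p = 2.62e-06) and 2.74-fold for Fzd5 (SE 0.11, adjusted p = 5.92e-06) against CCL21+ TECs. A gene on the other strand, Gm38058, overlaps 17.8% of the Fzd5 exons, and whether counting used strand is not given in the sources used here.

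Fzd3, a receptor of planar polarity, was highest in double-negative TECs at 7.32 and 7.11 RPKM, with 5.01, 4.8 and 5.96 RPKM in CCL21+ and 1.96, 2.51 and 2.08 RPKM in RANK+ TECs. The RANK+ level was 3.58-fold below that of double-negative TECs (SE of the log2 value 0.15, adjusted p = 8.29e-06). Fzd4 followed the same order, from 1.90 and 2.21 RPKM in double-negative through 1.29, 1.05 and 1.54 RPKM in CCL21+ to 0.25, 0.42 and 0.52 RPKM in RANK+ TECs (5.62-fold between double-negative and RANK+, SE 0.31, adjusted p = 0.00013). Neither gene was called between the RANK- populations (adjusted p = 0.073 for Fzd3 and 0.20 for Fzd4). Without RANK+ replicate 1, Fzd4 was called higher in double-negative than in CCL21+ TECs. Fzd6 was at 28.4, 29.4 and 35.9 RPKM in CCL21+, 23.8, 21.9 and 21.9 RPKM in RANK+ and 23.9 and 23.7 RPKM in double-negative TECs, and its 1.5-fold difference between the reporter-positive populations lay at the fold limit (SE 0.10, adjusted p = 0.00073). This call was lost without CCL21+ replicate 2 or 3, RANK+ replicate 1 or 3, or double-negative replicate 2, with DESeq2, with either other scaling, without an expression filter, with 10 counts in every library, with only the libraries compared and without the noncoding genes Gm26917 and Gm42418. Fzd9 did not exceed 0.87 RPKM in any library.

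**Figure D4:**
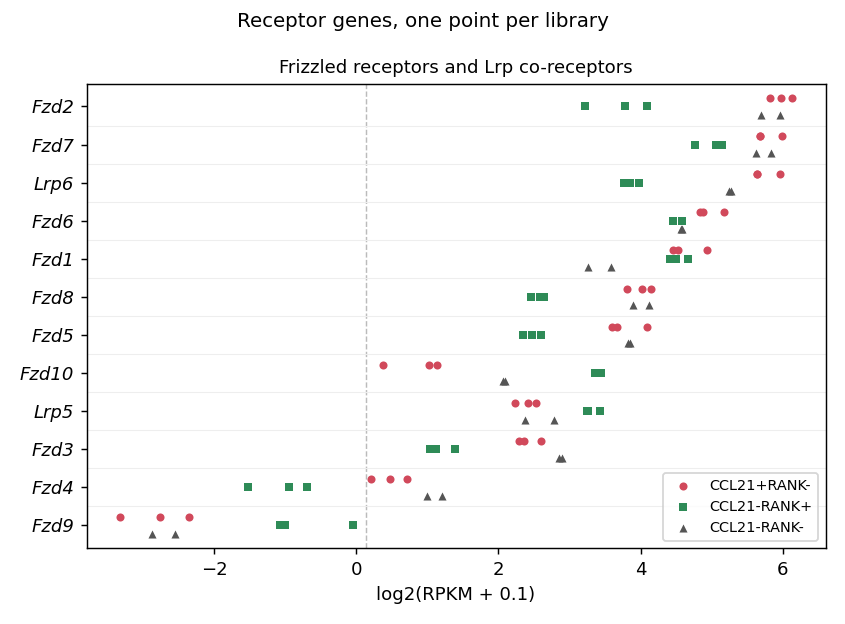
Levels of the 10 Frizzled genes and of Lrp5 and Lrp6 on a log2(RPKM + 0.1) axis, 1 point per library, coloured by population, with a dashed line at 1 RPKM. The CCL21-RANK+ libraries are lowest for Fzd2, Fzd7, Lrp6, Fzd8, Fzd5, Fzd3 and Fzd4 and highest for Fzd10 and Lrp5.

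Among the 9 antagonist genes, 4 exceeded 1 RPKM and all 4 were called between CCL21+ and RANK+ TECs, 2 in each direction, where 30.8% of all genes tested and 48.9% of those over 1 RPKM in either population were called. Sfrp proteins are secreted relatives of Frizzled that bind Wnt ligands, whereas Dkk proteins act with Kremen on the Lrp co-receptors. Sfrp1 was at 58.3, 43.4 and 40.8 RPKM in CCL21+, 25.3, 25.4 and 19.1 RPKM in RANK+ and 13.4 and 12.3 RPKM in double-negative TECs. The 3 populations did not overlap, and CCL21+ TECs were 2.22-fold above RANK+ (SE of the log2 value 0.18, adjusted p = 0.00043) and 3.70-fold above double-negative TECs (SE 0.21, adjusted p = 0.00067). Sfrp1 was 1.66-fold higher in RANK+ than in double-negative TECs (SE 0.20, adjusted p = 0.013), which was lost without double-negative replicate 2 (adjusted p = 0.11).

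Sfrp5, another member of that family, was at 12.8, 9.03 and 10.5 RPKM in RANK+ TECs and at 0.09 RPKM or less in all other libraries, with 7, 0 and 2 counts in the CCL21+ libraries. The difference was 329-fold against CCL21+ (log2 fold change -8.36, SE 0.61, adjusted p = 3.91e-06) and 180-fold against double-negative TECs (SE 0.67, adjusted p = 1.72e-05), and the first log2 value became -9.76 without CCL21+ replicate 1. Against double-negative TECs, the log2 fold change of 7.49 became 8.79 without double-negative replicate 1 and 6.75 without double-negative replicate 2. Dkk2 was at 3.59, 1.24 and 1.33 RPKM in RANK+ and 0.06 RPKM in each double-negative library, and had 1 count in all CCL21+ libraries together. Its depth-adjusted ratio of RANK+ to CCL21+ was 1188 with a 95% counting interval of 213 to 46964, and it was 28.7-fold higher than in double-negative TECs (log2 fold change 4.84, SE 0.65, adjusted p = 0.00024). Replicate 1 was the highest for Dkk2, and without it the log2 fold change against double-negative was 4.25 (adjusted p = 0.00040). The fitted log2 value of Dkk2 against CCL21+, -9.69, depends on the prior count and became -11.64 without CCL21+ replicate 1 and -9.08 without RANK+ replicate 1.

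Kremen1 followed Wnt4 and Lrp6. It was at 23.6, 19.5 and 19.2 RPKM in CCL21+, 10.2, 8.84 and 7.30 RPKM in RANK+ and 15.4 and 18.3 RPKM in double-negative TECs. The RANK+ libraries were lowest, 2.58-fold below CCL21+ (SE of the log2 value 0.14, adjusted p = 2.83e-05) and 2.08-fold below double-negative TECs (SE 0.15, adjusted p = 0.00031). The other 5 antagonist genes (Dkk1, Dkk3, Dkk4, Sfrp2 and Sfrp4) did not have a mean over 1 RPKM, and the highest single library among them was Dkk1 at 1.35 RPKM in RANK+ replicate 1. Dkk1, with 328 counts in RANK+ and 1 in CCL21+ TECs, reached an adjusted p of 0.00010 with a depth-adjusted ratio of 324 (95% counting interval 57.7 to 12822). Dkk4 had 38 counts in RANK+ TECs, 31 of them in replicate 1, and none elsewhere, and it was too low to be tested.

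Rspo proteins amplify Wnt signals by binding Lgr4 and removing the ubiquitin ligases Znrf3 and Rnf43, which clear Frizzled receptors from the cell surface. Lgr4 was at 36.5, 30.3 and 40.8 RPKM in CCL21+, 18.5, 24.0 and 26.5 RPKM in RANK+ and 25.5 and 26.8 RPKM in double-negative TECs. It was 1.67-fold higher in CCL21+ than in RANK+ TECs without overlap (SE of the log2 value 0.15, adjusted p = 0.0027), and this difference fell under the fold limit without RANK+ replicate 1 (log2 fold change 0.57). Rnf43 was at 13.1, 12.6 and 13.7 RPKM in CCL21+, 7.71, 7.61 and 8.55 RPKM in RANK+ and 13.1 and 16.6 RPKM in double-negative TECs, 2.01-fold lower in RANK+ than in double-negative TECs (SE 0.11, adjusted p = 5.86e-05) and 1.80-fold lower than in CCL21+ (SE 0.10, adjusted p = 8.75e-05).

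Znrf3, which has the same activity as Rnf43, differed in the other direction. It was at 3.15, 3.79 and 4.2 RPKM in RANK+, 2.35, 1.68 and 1.70 RPKM in CCL21+ and 2.49 and 2.90 RPKM in double-negative TECs, 1.79-fold higher in RANK+ than in CCL21+ (SE of the log2 value 0.18, adjusted p = 0.0034). Every RANK+ library exceeded every other library. Kremen1 and Znrf3 lie 14765 bases apart on chromosome 11 and were called in opposite directions. Rspo3 was at 1.16, 0.99 and 1.51 RPKM in RANK+ TECs and 0.17 RPKM or less elsewhere, 9.51-fold above CCL21+ (SE 0.55, adjusted p = 0.00081) and 15.1-fold above double-negative TECs (log2 fold change 3.92, SE 0.67, adjusted p = 0.0010). Without double-negative replicate 1 the latter log2 value was 4.55 (adjusted p = 0.0060). Rspo1, Rspo2 and Rspo4 had no mean over 1 RPKM, and Rspo4, with 235 counts in RANK+ TECs and none in any other library, was at least 77.3-fold higher than in CCL21+ TECs. RANK+ replicate 1 held 153 of these counts, and without it the bound was 45.1-fold, while without CCL21+ replicate 1 or 3 it was 48.8-fold and 48.9-fold. The antisense RNA Rspo4os overlaps Rspo4, had at most 9 counts in a library and was not tested.

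**Figure D5:**
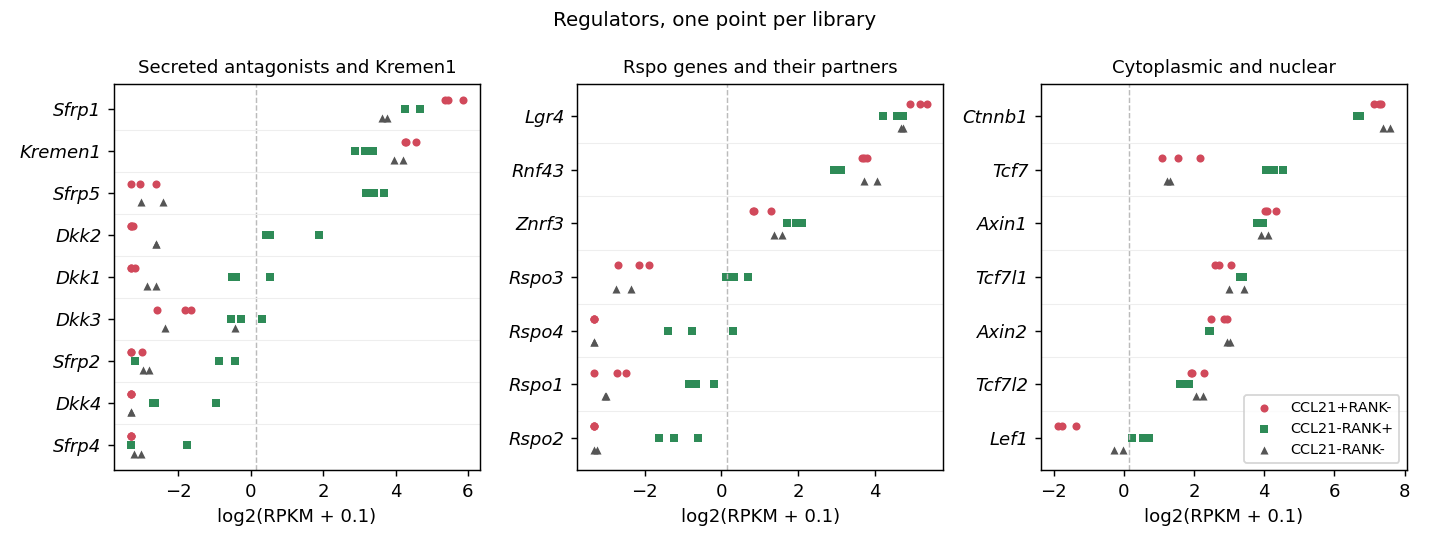
Levels of antagonists (left), Rspo genes and their partners (middle) and cytoplasmic and nuclear components (right) on log2(RPKM + 0.1) axes, 1 point per library, coloured by population, with dashed lines at 1 RPKM. Sfrp5 and Dkk2 exceed 1 RPKM only in CCL21-RANK+ libraries, where Tcf7 is also highest (23.2, 16.5 and 19.3 RPKM).

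Ctnnb1 (β-catenin), which also serves in cell adhesion, was the most abundant gene of the module in every library. It was at 155, 141 and 160 RPKM in CCL21+, 101, 106 and 102 RPKM in RANK+ and 168 and 192 RPKM in double-negative TECs. The RANK+ libraries were the lowest, 1.60-fold below CCL21+ (SE of the log2 value 0.11, adjusted p = 0.00060) and 1.89-fold below double-negative TECs (SE 0.12, adjusted p = 0.00018). The difference from CCL21+ TECs fell under the fold limit with 10 counts in every library. The antisense gene Ulk4 overlaps 14.6% of its exons and had at most 2474 counts in a library.

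The Axin genes, scaffolds of the destruction complex, differed less. Axin2, a widely used transcriptional target of β-catenin, was at 5.55, 7.17 and 7.55 RPKM in CCL21+, 5.43, 5.30 and 5.39 RPKM in RANK+ and 7.55 and 8.13 RPKM in double-negative TECs. All RANK+ libraries were the lowest, but the difference from CCL21+ was 1.37-fold and so under the limit of 1.5 (SE of the log2 value 0.13, adjusted p = 0.014), whereas that from double-negative TECs was 1.58-fold and called (SE 0.14, adjusted p = 0.0035), a call that was lost with DESeq2, with either other scaling and with 10 counts in every library. Axin1 lay between 13.8 and 20.03 RPKM in all libraries and was not called in any comparison.

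Tcf7 and Lef1, the DNA-binding partners of β-catenin, were both highest in RANK+ TECs. Tcf7 was at 23.2, 16.5 and 19.3 RPKM in RANK+, 4.44, 2.04 and 2.83 RPKM in CCL21+ and 2.40 and 2.25 RPKM in double-negative TECs. Lef1 was at 1.37, 1.08 and 1.54 RPKM, 0.29, 0.17 and 0.20 RPKM, and 0.89 and 0.72 RPKM in the same order. For both genes, no RANK+ library overlapped another population. Tcf7 was 5.82-fold higher than in CCL21+ (SE of the log2 value 0.25, adjusted p = 2.2e-05) and 7.74-fold higher than in double-negative TECs (SE 0.29, adjusted p = 3.22e-05). Lef1 was 5.55-fold higher than in CCL21+ (SE 0.27, adjusted p = 4.67e-05) but not distinguished from double-negative TECs (1.51-fold, SE 0.28, adjusted p = 0.11), although Lef1 was called there with DESeq2 (adjusted p = 0.031) and with 10 counts in every library (adjusted p = 0.037). Between the RANK- populations, Lef1 was 3.69-fold lower in CCL21+ TECs (SE 0.28, adjusted p = 0.0029), although its mean did not exceed 1 RPKM in either. Both genes are also expressed by thymocytes, whose summed markers were highest in RANK+ libraries as given above. The part of thymocyte RNA in the levels of Tcf7 and Lef1 was not tested. Of the 13 thymocyte markers, 9, 4 and 7 exceeded 1 RPKM in the RANK+ libraries. There Thy1, which is also in the mesenchymal list, was at 10.1, 4.77 and 5.02 RPKM and Rag1 at 6.31, 2.57 and 5.99 RPKM. Ptprc, against which the cells were sorted, was at 0.58, 0.18 and 0.42 RPKM. Rag1 was also at 5.12, 1.38 and 2.66 RPKM in CCL21+ TECs. Cd8b1 alone had its highest level in a CCL21+ library, at 1.71 RPKM in replicate 1.

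Tcf7l1 and Tcf7l2, the other Tcf genes, varied little. Tcf7l1 lay between 5.91 and 10.5 RPKM and Tcf7l2 between 2.95 and 4.81 RPKM in all libraries, and neither reached the fold limit in any comparison. Tcf7l1 was called higher in RANK+ than in CCL21+ TECs when 10 counts were required in every library (log2 fold change -0.60, adjusted p = 0.0016), and Tcf7l2 lower in RANK+ than in double-negative TECs with the replicate number as a block (log2 fold change -0.61, adjusted p = 0.0045). Tcf7 was thus the most abundant nuclear component in RANK+ TECs, at 53.8% to 61.0% of the RPKM summed over the 4 genes, and Tcf7l1 in both RANK- populations, at 43.2% to 58.0%.

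Between the RANK- populations, 4 genes were higher in CCL21+ TECs (Wnt5a, Wnt5b, Fzd1 and Sfrp1), where 4.35% of all genes were called, and Fzd10 alone was higher in double-negative TECs, where 3.66% were called. All 4 were highest in CCL21+ replicate 1, the library with the most parathyroid marker RNA, whose part in the Fzd1 and Sfrp1 levels was not tested. Without that replicate, the log2 fold changes over double-negative TECs were 1.07 for Fzd1 (adjusted p = 0.0013) and 1.72 for Sfrp1 (adjusted p = 0.0010), from edgeR. The other CCL21+ libraries also held such RNA (1750 and 1955 RPKM), so this refit does not remove it. The share of genes called was 5 of the 29 with a mean over 1 RPKM in either population, against 14.3% of all such genes. An exact permutation test on a single gene could not give a p below 0.1 with 3 libraries against 3, or 0.2 with 3 against 2, so these calls rest on the spread shared across genes in the fit.

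Other genes of the pathway were taken as a list of 59, of which 58 were tested. Between CCL21+ and RANK+ TECs, 13 were higher in CCL21+ and 10 in RANK+ TECs, where 15.4% of all genes tested were called in each direction. The median log2 fold change was 0.29, against -0.11 over all genes. The secretion factor Wls, which carries Wnt proteins to the cell surface, was at 22.1, 19.1 and 21.2 RPKM in CCL21+, 7.42, 7.34 and 7.36 RPKM in RANK+ and 16.4 and 18.5 RPKM in double-negative TECs. It was thus lowest in the population with the highest ligand sum, 3.06-fold below CCL21+ (SE of the log2 value 0.09, adjusted p = 1.23e-06).

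The other leading genes higher in CCL21+ than in RANK+ TECs were Pygo1, a β-catenin coactivator (6.58-fold), the receptor Ptk7 (4.35-fold) and the feedback inhibitor Nkd1 (3.25-fold). Nkd1 was at 3.23, 1.72 and 1.83 RPKM in CCL21+ TECs, highest in the replicate with the most parathyroid marker RNA, without which its log2 fold change was 1.35 (adjusted p = 0.0013, edgeR). Ptk7 was at 71.8, 70.2 and 92.3 RPKM in CCL21+, 14.6, 22.8 and 20.5 RPKM in RANK+ and 67.0 and 83.5 RPKM in double-negative TECs, with all RANK+ libraries lowest. In the other direction, Nkd2 was 9.82-fold, the cell cycle gene Ccnd1 4.95-fold and the surface proteoglycan Gpc3 2.96-fold higher in RANK+ TECs. Sost, an Lrp antagonist best known from bone, was at 6.74, 1.67 and 2.09 RPKM in RANK+ TECs and had no counts in CCL21+ TECs, so that it was at least 380-fold higher (floor of 3 counts over the group). That bound was 197-fold without RANK+ replicate 1, and 239.9-fold and 241-fold without CCL21+ replicate 1 or 3. Nkd1 and Nkd2, which are both feedback inhibitors acting on Dishevelled, were therefore called in opposite directions.

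By group, 5 of 10 genes of Dishevelled and the destruction complex were higher in CCL21+ than in RANK+ TECs (Amer1, Apc, Dvl2, Dvl3 and Gsk3b, by 1.74-fold to 1.95-fold) and none was higher in RANK+. Of 9 feedback and common target genes, 5 were higher in RANK+ (Nkd2, Ccnd1, Tnfrsf19, Myc and Cd44) and 1 in CCL21+ TECs (Nkd1). The calls of Myc and Tnfrsf19 were lost without CCL21+ replicate 1, the library with the most parathyroid marker RNA. Myc, whose libraries overlapped, then had a log2 fold change of -0.48 (adjusted p = 0.10, edgeR). Tnfrsf19 fell under the fold limit (log2 fold change -0.54). Over all genes tested 15.4% were called in each direction, and 48.9% in either direction among those with a mean over 1 RPKM. Of 9 planar cell polarity genes, 0 were called in this comparison, with 0 and 2 passing the adjusted p-value alone in CCL21+ and RANK+ TECs. The genes listed here outside the leading 4 in each direction were named after their values were seen.

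Between the RANK- populations, 2 of the 58 were higher in CCL21+ (Daam1, 1.78-fold, and Celsr1, 1.56-fold) and 7 in double-negative TECs, led by Tnfrsf19, Gpc3, Ror2 and Gpc4, where 4.35% and 3.66% of all genes were called. The 7 became 4 without double-negative replicate 2, and the 2 became 1 without either double-negative library and 3 without CCL21+ replicate 3. Tnfrsf19, a receptor that β-catenin is known to induce, was at 7.16 and 9.67 RPKM in double-negative against 0.923, 1.04 and 1.42 RPKM in CCL21+ and 1.79, 2.01 and 1.95 RPKM in RANK+ TECs. The double-negative libraries were highest by 7.46-fold over CCL21+ (SE of the log2 value 0.19, adjusted p = 6.43e-05). Ror2, a receptor for Wnt5a, was at 1.87 and 2.77 RPKM in double-negative, 0.905, 0.615 and 0.582 RPKM in CCL21+ and 0.189, 0.155 and 0.199 RPKM in RANK+ TECs. The populations did not overlap for Ror2, whose highest level was in double-negative TECs, while that of Wnt5a was in CCL21+ TECs.

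Between RANK+ and double-negative TECs, 5 of the 58 were higher in RANK+ (Sost, Ccnd1, Nkd2, Daam1 and Celsr1) and 16 in double-negative TECs, led by Ror2 (13.8-fold), Pygo1 (6.17-fold), Tnfrsf19 (4.72-fold) and Ptk7 (4.19-fold). Of all genes tested, 14.4% and 15.1% were called in these directions. Ccnd1 was at 15.0, 10.3 and 11.1 RPKM in RANK+, 3.16, 1.72 and 1.83 RPKM in CCL21+ and 0.89 and 1.48 RPKM in double-negative TECs, and every RANK+ library exceeded every other library.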

How the data were processed

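Per the submitters' processing notes, the authors used bcl2fastq 2.20, Trimmomatic, STAR 2.5.1, RSEM 1.3.1 and the mm10 build, and deposited one table of estimated counts per gene (RSEM expected counts, not normalized) for the 8 libraries. Gene names matched GENCODE release M21. Total counts per library were 42751839 to 71625282. The study's text names another library kit and counting software than the labels, and the strand setting used in counting is not given in the sources used here.

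Expected counts were rounded and fitted in edgeR 4.0.16 (R 4.3.3) with TMM normalization, filterByExpr and the quasi-likelihood test over all libraries, with Benjamini-Hochberg adjustment over 21451 genes. A gene was called at an adjusted p-value under 0.05, a fold over 1.5 and a mean over 1 RPKM in the higher population. RPKM used exonic lengths from GENCODE. Standard errors (SE) were worked back as the absolute log2 fold change over the square root of the test's F value. They restate the test and are a poor guide to precision for genes near 0 counts in a group. Counting intervals are 95% intervals of a ratio of counts and, like the floor of 3 counts over a group for genes at 0, cover counting error only. Alternatives were DESeq2 1.42.0, other scalings, count filters, call limits, a replicate block and leaving out each library. Same-numbered libraries were not treated as pairs, although each CCL21+ and RANK+ library correlated best with its own number in the other group.

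Genes with a mean over 1 RPKM in a population are given by library and the others by range and count; of the other pathway genes, the 4 called genes with the largest changes per direction are named. The members and the lists were chosen with earlier results of these data known. Promoters are RefSeq sequences (GRCm38.p6), and the match of 35 of 55 genes was by symbol.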

Additional observations from a re-analysis of the deposited data

How the results depend on the processing

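With 2 double-negative libraries, comparisons with that group were the least precise, and 17 genes had no mean over 1 RPKM. Of the 38 genes above that level, 709 of 716 alternative values between CCL21+ and RANK+ TECs, 653 of 713 between CCL21+ and double-negative TECs and 694 of 716 between RANK+ and double-negative TECs kept their direction and side of the adjusted p-value threshold.

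With the adjusted p-value alone, 30 genes of the module were higher in RANK+ than in CCL21+ TECs, 4 were higher in double-negative than in CCL21+ TECs and 23 were higher in RANK+ than in double-negative TECs. All genes called became 11516 (CCL21+ against RANK+) and 10501 (RANK+ against double-negative), and other pathway genes 22 and 18, and 13 and 27. At a fold over 2, the module's calls fell from 32 to 24 (CCL21+ against RANK+, without Ctnnb1, Fzd6, Fzd7, Lgr4, Lrp5, Rnf43, Wnt6 and Znrf3) and from 28 to 20 (RANK+ against double-negative, without Axin2, Ctnnb1, Fzd1, Fzd7, Lrp5, Sfrp1, Wnt6 and Wnt9a), and other pathway genes were 7 and 4 (CCL21+ and RANK+), 0 in CCL21+ against double-negative, and 3 and 8 (RANK+ and double-negative), with 1030 genes called between the RANK- populations. No share of all genes at a fold over 2 is given for the comparisons with RANK+ TECs, so the fall there cannot be read as particular to the module. With only the libraries compared, 2 genes of the module were higher in double-negative than in CCL21+ TECs, as Fzd4 was gained. Requiring 10 counts in every library left Dkk2, Rspo3, Sfrp5, Wnt2b, Wnt8b and Wnt11 untested, and Ctnnb1 and Fzd6 fell under the fold limit between CCL21+ and RANK+ TECs, as did Axin2 between RANK+ and double-negative TECs, where Lef1 was gained. Wnt7b was also called between CCL21+ and RANK+ TECs without an expression filter and with the replicate block, and between the RANK- populations with DESeq2, without an expression filter, with 10 counts in every library, with only the libraries compared and with the replicate block. Without the noncoding genes Gm26917 and Gm42418, Dkk1, Dkk3, Wnt2, Wnt3 and Wnt9b were also called between CCL21+ and RANK+ TECs, and Dkk1, Wnt2 and Wnt3 between RANK+ and double-negative TECs. DESeq2 scaling moved the median of all genes by 0.14 between RANK+ and double-negative TECs (0.12 with upper-quartile scaling), and with either scaling the calls of Fzd6 (CCL21+ against RANK+) and Axin2 (RANK+ against double-negative) were lost.

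Leaving out each library gave 6202 to 6715, 657 to 2066 and 5347 to 6547 genes called in the 3 comparisons. The module's calls were 16 to 17 and 13 to 18 (CCL21+ and RANK+), 4 to 5 and 1 to 2 (CCL21+ and double-negative), and 13 to 17 and 12 to 13 (RANK+ and double-negative). Other pathway genes were 12 to 14 and 8 to 10, 1 to 3 and 4 to 8, and 4 to 6 and 13 to 17. Lrp5 fell under the fold limit between RANK+ and double-negative TECs without double-negative replicate 1, and Wnt5a was called there without CCL21+ replicate 1, with DESeq2 and without an expression filter. Without RANK+ replicate 2, Dkk1 and Wnt3 were also called against both other populations, and Wnt9b against CCL21+ TECs, as it was without RANK+ replicate 3. Where this left 1 double-negative library, it was assumed to vary like the other groups.

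No value that passed the test reversed, and none passed it after reversing. Between CCL21+ and double-negative TECs, the log2 fold change of Fzd5 became 0.0102 with DESeq2 and with its size factors, and 0.0247 with 10 counts in every library. That of Fzd8 became 0.0377 and 0.0376 with DESeq2 and its size factors, 0.0249 with upper-quartile scaling, 0.0529 with 10 counts in every library, 0.00292 with only the libraries compared and 0.00169 without Gm26917 and Gm42418. Between RANK+ and double-negative TECs, Fzd6 became 0.00152 with 10 counts in every library. Leaving out libraries, log2 values between the RANK- populations ranged from -2.27 to 0.44 (Sfrp5), -0.10 to 0.39 (Wnt10a), -1.29 to 0.14 (Wnt11), -2.20 to 0.12 (Wnt2b), -0.18 to 0.28 (Wnt4), -0.097 to 0.10 (Wnt6), -0.15 to 0.047 (Fzd5) and -0.053 to 0.036 (Fzd8), and between RANK+ and double-negative TECs from -0.15 to 0.33 (Wnt5b) and -0.11 to 0.17 (Tcf7l1). The causes were not tested.

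With the replicate number as a block, the module's calls were 18 and 15, 5 and 1, and 16 and 14, of 6616, 1913 and 6324 genes, and the values of Wnt5b (-0.059) and Tcf7l1 (-0.011) between RANK+ and double-negative TECs changed sign near 0. Beside Wnt7b, the block added Wnt5a and Tcf7l2 in the last comparison, and it removed no call. Same-numbered CCL21+ and RANK+ libraries had correlations of deviations of 0.0485 to 0.126, not all over 0.1, and were not treated as pairs. Among these 6 libraries, each correlated best with its own number in the other group, a hint from the data. Same-numbered pairs with a double-negative library were all negative (-0.117 to -0.0411). The deviations of the double-negative libraries mirror each other, however, so those values are not independent. Whether same-numbered libraries came from 1 sort is not given in the sources used here, so pairing was not settled.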
